A study of Mus musculus with 10 samples.

Results

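Aminoacyl-tRNA synthetase genes encode the enzymes that load each amino acid onto its transfer RNA. They were taken as every RefSeq protein-coding gene of mouse build GRCm38 whose symbol is a one-letter amino acid code followed by ars, with or without 1, 2 or 3, together with Eprs, Farsa and Farsb. The rule gave 37 genes of 21887 protein-coding genes on the autosomes and the X and Y chromosomes. Of these, 17 have the suffix 2 and were classed as mitochondrial, and the other 20 were classed as cytosolic. No gene with the suffix 2 stands for glycine, lysine or glutamine, so Gars, Kars and Qars have no mitochondrial partner in the set. The rule uses symbols only and no measured value.

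For most amino acids, cells carry separate synthetases for the cytosol and for the mitochondrion, and the latter are also made from nuclear genes. Several cytosolic synthetases are held in a multisynthetase complex by scaffold proteins, and transcription of many cytosolic synthetase genes is raised by the factor ATF4 when amino acids run short. The genes themselves are transcribed by RNA polymerase II, whereas the transfer RNAs that their products charge are made by RNA polymerase III with the factor TFIIIC, which binds an internal element called the B box.

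The study sequenced chromatin immunoprecipitated from cultured cortical neurons of C57BL/6J mice, kept for 6 days in vitro and overnight in 3% serum before use, conditions that both groups share. One group was untreated, and the other was depolarised with 50 mM KCl for 45 min. The antibodies were against Gtf3c1, the largest and DNA-binding subunit of TFIIIC, against Rpc155, the largest catalytic subunit of RNA polymerase III, and against the histone marks H3K4me1, found at enhancers and at the flanks of promoters, and H3K27ac, found at active promoters and enhancers. The design text gives 3 biological replicates for each condition, but 1 region list was analysed for each antibody and condition, so no spread between cultures could be computed and no difference below was tested. Whether replicates were pooled for a list is not stated in the sources used.

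The Gtf3c1 lists held 66622 regions untreated and 58090 with KCl. Rpc155 had 12531 and 4251 regions, H3K4me1 192225 and 193683, and H3K27ac 65486 and 58124. Read numbers behind the lists are unknown, and the fold enrichment of a region is the authors' value over background, with no scaling between libraries stated. The H3K27ac lists had a region within 1 kb of all 5 neuronal, 6 glutamatergic and 3 GABAergic marker genes in both conditions. Of the markers of other cells, 3 of 4 for astrocytes untreated and 2 of 4 with KCl, 1 of 4 for the oligodendrocyte lineage in both, 0 of 4 for microglia in both, and 1 of 3 untreated and 0 of 3 with KCl for endothelium had one. In such mixed cultures, a region in fewer cells and a weaker region in each cell cannot be told apart.

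The DNA at the starts of the genes that the results turn on is shown first. RefSeq promoter windows, from 250 bases before to 50 bases after an annotated start (GRCm38.p6), were held for 27 of the 37 genes, 13 cytosolic and 14 mitochondrial. Rars, Wars, Cars, Vars, Pars2, Hars, Hars2, Lars and Nars were among the 10 with no entry. Qars, Mars1 and Eprs are printed because they had the highest Gtf3c1 fold enrichments among genes with a window. Their windows are chr9:108507755-108508054 on the plus strand, chr10:127311737-127312036 on the minus strand and chr1:185362794-185363093 on the plus strand. No searched motif was in them, so no letters are in capitals.
Qars: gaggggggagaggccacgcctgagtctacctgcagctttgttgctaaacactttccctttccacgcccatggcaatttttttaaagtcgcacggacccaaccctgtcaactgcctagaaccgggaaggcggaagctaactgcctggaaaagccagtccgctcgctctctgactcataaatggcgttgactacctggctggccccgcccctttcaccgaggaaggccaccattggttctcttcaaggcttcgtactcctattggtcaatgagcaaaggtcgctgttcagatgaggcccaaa
Mars1: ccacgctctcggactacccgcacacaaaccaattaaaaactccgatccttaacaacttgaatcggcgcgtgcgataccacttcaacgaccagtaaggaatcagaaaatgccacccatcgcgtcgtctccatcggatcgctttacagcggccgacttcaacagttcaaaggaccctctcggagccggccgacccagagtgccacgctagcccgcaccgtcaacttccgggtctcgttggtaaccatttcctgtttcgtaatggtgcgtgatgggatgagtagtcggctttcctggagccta
Eprs: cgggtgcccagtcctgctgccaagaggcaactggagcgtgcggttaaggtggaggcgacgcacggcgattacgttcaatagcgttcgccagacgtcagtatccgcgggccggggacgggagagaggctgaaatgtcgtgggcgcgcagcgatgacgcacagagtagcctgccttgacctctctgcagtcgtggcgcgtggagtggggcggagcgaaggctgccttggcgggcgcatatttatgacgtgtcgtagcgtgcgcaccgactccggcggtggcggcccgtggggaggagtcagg

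A second set is printed because it holds the amino acid response element, the site type that ATF4 binds, searched as TGATGNAAN on both strands and marked in capitals. The windows are chr8:111033592-111033891 on the plus strand for Aars (alanine), chr6:55037751-55038050 plus for Gars (glycine), chr13:49681880-49682179 plus for Iars (isoleucine), chr15:11399609-11399908 minus for Tars (threonine) and chr4:129189653-129189952 plus for Yars (tyrosine). Matches on the opposite strand read as the reverse complement.
Aars: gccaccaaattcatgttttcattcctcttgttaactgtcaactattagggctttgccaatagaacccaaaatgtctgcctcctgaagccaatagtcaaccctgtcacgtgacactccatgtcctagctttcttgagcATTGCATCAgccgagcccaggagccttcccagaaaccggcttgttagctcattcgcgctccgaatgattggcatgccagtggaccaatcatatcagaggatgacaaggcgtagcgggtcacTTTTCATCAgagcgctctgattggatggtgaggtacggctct
Gars: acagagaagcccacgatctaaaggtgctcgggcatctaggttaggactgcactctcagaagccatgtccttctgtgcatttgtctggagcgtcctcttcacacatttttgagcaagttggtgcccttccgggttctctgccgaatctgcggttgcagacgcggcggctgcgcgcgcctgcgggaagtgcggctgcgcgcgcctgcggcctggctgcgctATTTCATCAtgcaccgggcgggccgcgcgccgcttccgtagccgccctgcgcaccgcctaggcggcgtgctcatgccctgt
Iars: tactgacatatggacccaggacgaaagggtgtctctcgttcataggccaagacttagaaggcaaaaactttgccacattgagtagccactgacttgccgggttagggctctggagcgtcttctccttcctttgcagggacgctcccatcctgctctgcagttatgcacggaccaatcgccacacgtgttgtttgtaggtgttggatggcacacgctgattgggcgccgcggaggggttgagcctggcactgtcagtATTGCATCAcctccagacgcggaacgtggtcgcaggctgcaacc
Tars: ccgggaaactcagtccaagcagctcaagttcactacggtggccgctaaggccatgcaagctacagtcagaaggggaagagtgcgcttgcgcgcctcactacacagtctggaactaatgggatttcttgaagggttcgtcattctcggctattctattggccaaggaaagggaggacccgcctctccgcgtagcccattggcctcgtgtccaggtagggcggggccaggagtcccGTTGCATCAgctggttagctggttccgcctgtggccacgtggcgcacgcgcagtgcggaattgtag
Yars: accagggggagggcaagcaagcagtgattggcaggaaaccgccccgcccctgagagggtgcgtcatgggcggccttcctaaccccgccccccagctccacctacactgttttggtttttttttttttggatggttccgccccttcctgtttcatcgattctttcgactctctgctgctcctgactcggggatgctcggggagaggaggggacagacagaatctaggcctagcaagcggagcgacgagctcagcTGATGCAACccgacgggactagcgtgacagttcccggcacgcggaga

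These 5 genes were 5 of the 13 cytosolic genes with a window (38.5%), against 0 of 14 mitochondrial genes and 4.11% of 17492 protein-coding genes. Counted from the start, with negative numbers before it, the matches began at -113 and 8 in Aars, -31 in Gars, 6 in Iars, -16 in Tars and 3 in Yars. The B box, searched as GTTCNAA, then any pair of bases and a C, on both strands, was in 0 of 27 windows of the synthetase genes, against 2.87% of all genes. A match is a description of the letters and was not tested as a binding site. The windows of the synthetase genes had a median of 57.3% G or C and 17.5 CpG dinucleotides, against 56.3% and 13 over all windows. Head-to-head starts, another protein-coding gene beginning on the opposite strand within 1 kb, were found for 6 of the 27 genes (22.2%), against 9.61% of all genes. The pairs were Kars with Terf2ip, 5 bp apart, Rars2 with Orc3, 15 bp, Ears2 with Ubfd1, 112 bp, Sars2 with Mrps12, 147 bp, Fars2 with Lyrm4, 286 bp, and Yars with S100pbp, 324 bp. A region at such a start cannot be given to one gene of the pair.

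Gtf3c1 was listed near nearly every synthetase gene in both conditions. All 20 cytosolic genes had a Gtf3c1 region within 5 kb of a gene end in either condition, as did 16 of the 17 mitochondrial genes untreated and 15 with KCl. Over all protein-coding genes the shares were 55.0% untreated and 54.3% with KCl. H3K27ac and H3K4me1 were listed at all 37 genes in both conditions, against 59.5% and 63.2% of all genes for H3K27ac and 75.8% and 76.0% for H3K4me1. Of the 12742 genes with H3K27ac in both lists, a background taken after the data were seen, 86.8% had Gtf3c1 untreated and 86.9% with KCl, beside 97.3% and 94.6% of the synthetase genes. Sars2, the mitochondrial seryl-tRNA synthetase, was the gene with no Gtf3c1 region in either list. Its nearest regions lay 12470 bp away untreated and 12330 bp away with KCl, although its H3K27ac fold enrichment was 8.38 untreated and 13.5 with KCl. Pars2, the mitochondrial prolyl-tRNA synthetase, was the gene listed in 1 condition alone, with a fold enrichment of 3.10 untreated and its nearest KCl region 18331 bp away. The background shares for Gtf3c1 in 1 condition alone were 6.05% for the untreated list and 5.35% for the KCl list.

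**Figure D1:**
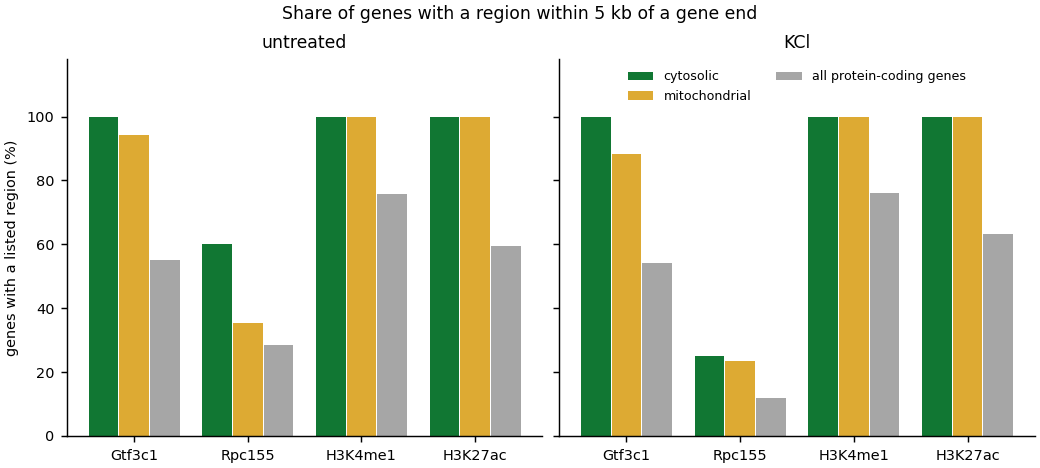
Share of genes, in percent, with a listed region within 5 kb of a gene end, for the 20 cytosolic and 17 mitochondrial synthetase genes and all 21887 protein-coding genes, in the untreated (left) and KCl (right) lists. Gtf3c1 stood at 100% and 94.1% of cytosolic and mitochondrial genes untreated, and Rpc155 at 60% and 35.3%.

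The height of the Gtf3c1 regions was close to that at other genes. The strongest region per gene had a median fold enrichment of 4.12 untreated over the 36 genes listed (4.78 cytosolic, 3.67 mitochondrial) and 5.02 with KCl over 35 (4.93 and 5.03), against 4.30 and 4.48 over all listed genes. Among the 26 untreated genes with a summit within 5 kb of the RefSeq start, 24 had it within 1 kb, at a median distance of 200 bp, against 84.5% and 266 bp over all such genes. With KCl, 24 of 25 genes had a summit within 1 kb, against 87.4% of all. A region on the 300 bp promoter window itself was listed for 21 of 27 genes untreated and 20 with KCl, against 34.9% and 39.2% of all genes. Of all genes, 45.5% untreated and 53.9% with KCl had H3K27ac on the window, and no share was taken over those alone. The strongest region within 5 kb was not always the gene's own: its summit was nearest to an end of the synthetase gene itself in 24 of 36 cases untreated and 26 of 35 with KCl, and nearest to a neighbour in the rest.

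Among the genes held in the multisynthetase complex (Dars, Eprs, Iars, Kars, Lars, Mars1, Qars and Rars), the median of the strongest Gtf3c1 region was 5.82 untreated (2.69 to 24.9) and 6.91 with KCl (3.35 to 13.5). Over the other 12 cytosolic genes it was 4.50 untreated (2.87 to 6.45) and 4.75 with KCl (2.85 to 6.46). The 3 highest Gtf3c1 values untreated, Qars, Lars and Mars1, and the 3 highest with KCl, Eprs, Mars1 and Lars, were all listed within 5 kb of complex members, but the Qars and Mars1 regions are nearest to the neighbours Qrich1 and Ddit3. Counting only regions nearest to an end of the gene itself, a count added after the values were seen, the median was 4.21 untreated over 8 complex genes (2.69 to 8.42) and 4.27 over 11 of the others (3.04 to 6.45). With KCl it was 4.66 over 7 complex genes (3.35 to 13.5) and 4.84 over 11 of the others (2.85 to 6.46), so the higher medians of the complex genes were not seen there. This grouping was made with the values known.

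Qars, the glutaminyl-tRNA synthetase (chr9:108508005-108515941), had the highest Gtf3c1 fold enrichment of the synthetase genes untreated, 24.9, and 7.18 with KCl, a ratio of 0.288. Of the 10707 genes listed in both conditions 0.0467% had a ratio as low. The region (chr9:108515860-108517309 untreated, chr9:108516549-108517990 with KCl) has its untreated summit 774 bp past the far end of Qars and 267 bp from the nearer end of the next gene, Qrich1. It is not at the start of Qars. An Rpc155 region with a fold enrichment of 7.30 lay there untreated (chr9:108516623-108517320), and none was listed with KCl. H3K27ac over the same place was 5.86 untreated and 12.7 with KCl, the opposite direction to Gtf3c1. At the start of Qars itself Gtf3c1 was low, with regions of 3.58 and 4.12 untreated and of 3.59, 2.69 and 4.13 with KCl.

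Eprs, which encodes the joined glutamyl- and prolyl-tRNA synthetase (chr1:185361417-185428360), was higher with KCl for Gtf3c1 and both histone marks. Its Gtf3c1 fold enrichment was 4.30 untreated and 13.5 with KCl, a ratio of 3.13 that 0.290% of genes listed in both conditions reached. The region spanned 1033 bp untreated (chr1:185362566-185363598) and 3009 bp with KCl (chr1:185361652-185364660), and both covered the RefSeq start. An Rpc155 region of 3.95 was listed there with KCl alone (chr1:185362281-185362721). H3K27ac was 9.65 over 3132 bp untreated and 17.2 over 7008 bp with KCl, the highest KCl value among the synthetase genes, and H3K4me1 was 7.64 and 9.72. The H3K27ac ratio of 1.78 was reached by 16.7% of genes.

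**Figure D2:**
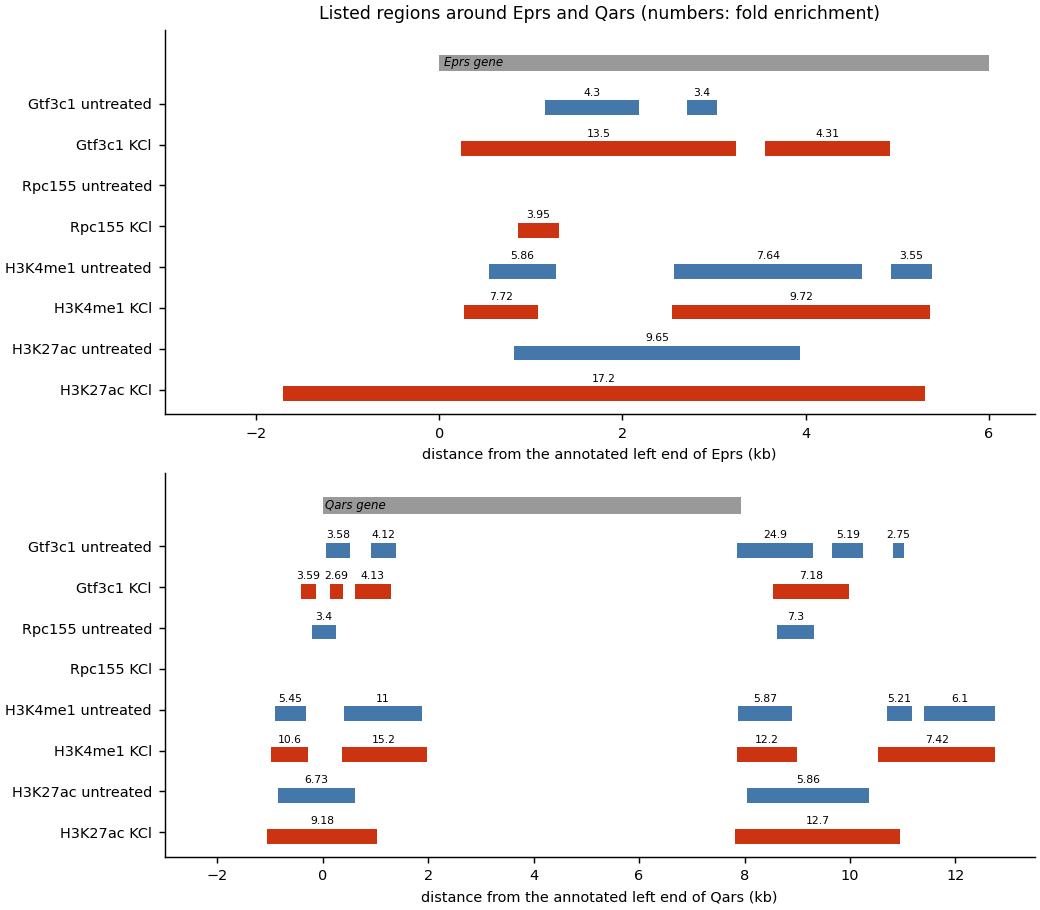
Listed regions around Eprs (top) and Qars (bottom) by distance in kb from the annotated left end of the gene, one row per antibody and condition, with bars for regions and their fold enrichment printed above. At Eprs the KCl Gtf3c1 region (13.5) is wider and higher than the untreated one (4.30) over the start, and at Qars the highest untreated region (24.9) lies beyond the far end of the gene.

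Lars, the cytosolic leucyl-tRNA synthetase, had a Gtf3c1 region at its own start, with fold enrichments of 8.42 untreated and 9.15 with KCl. Its Rpc155 region was listed untreated alone, at 3.40, and its H3K27ac was 6.22 untreated and 12.0 with KCl. Mars1, the cytosolic methionyl-tRNA synthetase (chr10:127296221-127311786), had Gtf3c1 values of 6.63 untreated and 9.87 with KCl, but these belong to a region by the start of its neighbour Ddit3, a transcription factor of the stress response. At the start of Mars1 itself the Gtf3c1 values were 4.84 and 4.66. An Rpc155 region of 4.18 was listed there with KCl alone (chr10:127312114-127312452), and H3K27ac was 7.62 and 12.2.

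Over the 35 genes with Gtf3c1 in both lists, the median log2 ratio of KCl to untreated fold enrichment was 0.17 (0.15 cytosolic, 0.25 mitochondrial), against 0.11 over all genes. The ratio was above 1 for 26 of 35 genes, 12 of 20 cytosolic and 14 of 15 mitochondrial, against 62.2% of all genes. These counts take in Vars2, all but level at 3.22 and 3.23. Hars and Hars2, which overlap at their ends, had the same values, 2.87 and 3.41, and count in both classes. At least 1.5-fold higher values were found for 4 of 35 genes, Eprs, Cars2, Nars2 and Wars2, against 14.2% of all genes, and at least 1.5-fold lower values for Qars and Dars, against 5.95%. Aars followed, at 6.27 and 4.57, in a region nearest to its neighbour Exosc6. On the Aars promoter window a region was listed with KCl alone, at 4.48. Nars2, the mitochondrial asparaginyl-tRNA synthetase (chr7:96950839-97064758), was 2.87 untreated over 252 bp and 5.56 with KCl over 1064 bp, with summits 232 and 223 bp past the RefSeq start. Wars2, the mitochondrial tryptophanyl-tRNA synthetase (chr3:99140107-99221230), was 3.58 and 6.82, with summits 187 and 213 bp past its start. At both genes the regions of the 2 lists overlapped at the gene's own start. Cars2, the mitochondrial cysteinyl-tRNA synthetase, was 3.76 and 7.18, but that region is nearest to the neighbour Ing1, and a region on its own promoter window was listed untreated alone, at 3.40.

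The strongest regions of the 2 lists overlapped each other for 27 of the 35 genes, so for the other 8 the ratio compares different places. The 8 included the mitochondrial genes Iars2, Lars2, Rars2 and Vars2, which the mitochondrial counts above take in. Dars, the cytosolic aspartyl-tRNA synthetase (chr1:128363707-128417416), was another of the 8. Its 5.73 untreated came from a region nearest to the neighbour Mcm6, whereas at its own start the highest values were 4.12 untreated and 3.77 with KCl. Taking only regions on the promoter windows, 15 genes were listed in both conditions, with a median log2 ratio of 0.12 against 0.15 over all genes, and 11 were higher and 4 lower with KCl, against 3368 higher and 1801 lower of 5169 over all genes. All 7 mitochondrial genes among them were above their untreated value, while of the 8 cytosolic genes 4 were above it and 4 below. Of the 7, Vars2 was all but level, at 3.22 and 3.23, and Ears2 was at 5.01 and 5.2. Eprs and Wars2 were the 2 of the 15 at least 1.5-fold higher (13.3%), against 17.6% of all genes.

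**Figure D3:**
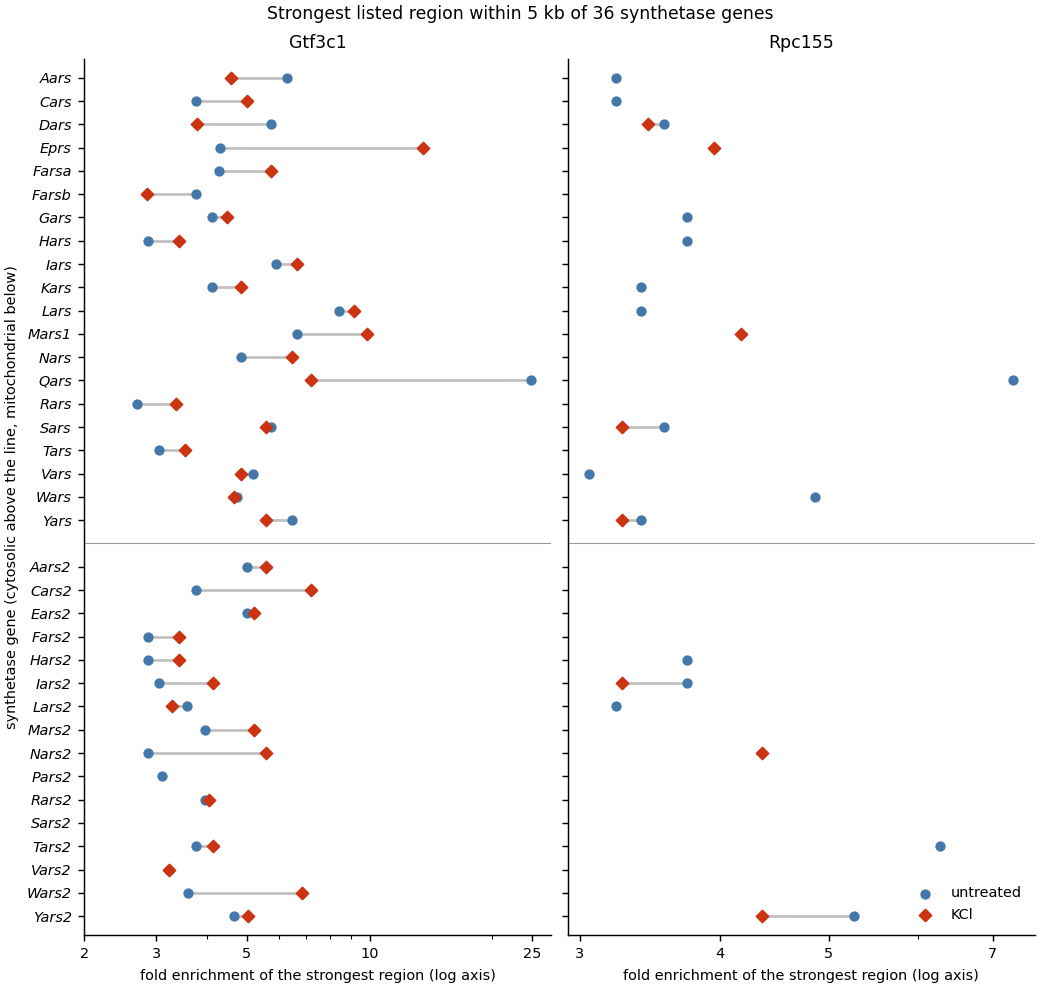
Fold enrichment (log axis) of the strongest Gtf3c1 (left) and Rpc155 (right) region within 5 kb of 36 synthetase genes, untreated (circles) and with KCl (diamonds), cytosolic genes above the line. A missing symbol means no listed region. Most genes lie between 3 and 10 for Gtf3c1, with Qars at 24.9 untreated and Eprs at 13.5 with KCl standing apart, and more genes carry an untreated than a KCl symbol for Rpc155.

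Rpc155 was listed at fewer synthetase genes, and mostly untreated. It was within 5 kb of 12 cytosolic and 6 mitochondrial genes untreated, against 28.6% of all genes, and of 5 and 4 with KCl, against 11.9%. Among genes with H3K27ac in both lists the backgrounds were 47.5% untreated and 19.8% with KCl, beside 48.6% and 24.3% of the synthetase genes, so the shares were near those of acetylated genes as a whole. The direction of this difference turned with the length of the lists. With both Rpc155 lists held to their 4251 regions of lowest p, the untreated list held 2 cytosolic and 3 mitochondrial genes and the KCl list 5 and 4, and the shares of all genes were 10.8% and 11.9%. On the promoter window, 8 of 27 genes had a region untreated and 3 with KCl, against 15.3% and 4.12% of all genes, with or without H3K27ac.

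An Rpc155 region was listed untreated alone at 12 genes (9 cytosolic, 3 mitochondrial), against 20.2% of all genes, and with KCl alone at 3 genes, against 3.51%. All 37 synthetase genes had H3K27ac in both lists. Of the 12742 genes that did, 6054 had Rpc155 untreated, 2529 with KCl and 1797 in both. The share in 1 condition alone was not taken over those genes, so these counts are not read as an excess. The untreated-alone values were 7.30 at Qars, 6.28 at Tars2, 4.86 at Wars, 3.74 at Gars, Hars and Hars2, 3.40 at Kars and Lars, 3.23 at Aars, Cars and Lars2, and 3.06 at Vars. Hars and Hars2, the cytosolic and mitochondrial histidyl-tRNA synthetases, overlap at their ends and share one region, so they are not independent. Tars2, the mitochondrial threonyl-tRNA synthetase, had its region (chr3:95754416-95755173) over the promoter window. The KCl-alone genes were Nars2 (4.36), Mars1 (4.18) and Eprs (3.95). At Nars2 the region (chr7:96950883-96951272) overlapped the Gtf3c1 region that was wider with KCl, as it did at Eprs.

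The 6 genes with Rpc155 in both conditions included Dars, Sars, Yars, Iars2 and Yars2. The values were 3.57 untreated and 3.45 with KCl at Dars, 3.57 and 3.27 at Sars, and 3.40 and 3.27 at Yars, the cytosolic aspartyl-, seryl- and tyrosyl-tRNA synthetases. Among the mitochondrial genes they were 3.74 and 3.27 at Iars2 and 5.26 and 4.36 at Yars2. All 6 were lower with KCl, with a median log2 ratio of -0.16 against 0.01 over the 1831 genes in both lists, and 0 of 6 passed 1.5-fold in either direction, against 9.12% higher and 4.59% lower. The strongest regions of the 2 lists overlapped for 3 of the 6 genes. For Iars2 and Sars they did not, and at Sars the untreated one lay at the far end of the gene. The scale is coarse: Rpc155 values took 10 levels over 18 synthetase genes untreated and 5 over 9 with KCl. Yars2, the mitochondrial tyrosyl-tRNA synthetase, had Rpc155 on its promoter window in both conditions.

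Gtf3c1 and Rpc155 regions overlapped by at least 1 bp at 15 of the 37 genes untreated and 7 with KCl, against 22.7% and 10.1% of all genes. Of the synthetase genes with Rpc155, 83.3% untreated and 77.8% with KCl had such an overlap, against 79.6% and 84.6% of all genes with Rpc155. Dars, Sars, Yars and Yars2 had it in both conditions. Among genes with Rpc155, the share with such an overlap was near the background in both conditions. With the lists of each antibody held to equal length, the overlap was at 5 genes untreated and 7 with KCl. The direction between the conditions thus turned with list length.

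H3K27ac was higher with KCl at 35 of the 37 genes, against 89.7% of all genes listed in both conditions. The median log2 ratio was 0.57 (0.67 cytosolic, 0.53 mitochondrial) against a shift of 0.48 over all 12742 genes, and the changes below are read against that shift. At least 1.5-fold higher values were found for 18 of 37 genes, 11 cytosolic and 7 mitochondrial, against 38.4%, and 0 were at least 1.5-fold lower, against 0.659%. The highest ratios were at Kars, the lysyl-tRNA synthetase (5.08 untreated and 11.6 with KCl), Lars (6.22 and 12.0) and Nars (5.08 and 9.72). The Kars region is nearest to the neighbour Adat1, while on the Kars promoter window the values were 4.74 and 11.3. Aars2, the mitochondrial alanyl-tRNA synthetase, at 8.71 and 8.10, and Dars, at 6.86 and 6.30, were the genes that were lower with KCl, followed by Fars2, at 6.86 and 7.56. At Dars a region of 1399 bp over the start untreated was listed as separate regions with KCl, of 6.30 and 2.30, and the window held the lower one.

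On the promoter windows H3K27ac was listed for 25 of 27 genes untreated and all 27 with KCl, against 45.5% and 53.9% of all genes. Mars2 (10.8) and Tars2 (6.89) were those with KCl alone on the window. The nearest summit lay within 1 kb of the start for all 27 genes in both conditions, at a median of 246 bp untreated and 223 bp with KCl, against 89.4% and 89.5% of all genes and medians of 284 and 281 bp. Among the 5 genes with the amino acid response element the median log2 ratio of H3K27ac on the window was 0.67, and among the 8 cytosolic genes without it it was also 0.67. For Gtf3c1 on the window the element genes gave 0.12 over 3 genes and the others -0.04 over 5.

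**Figure D4:**
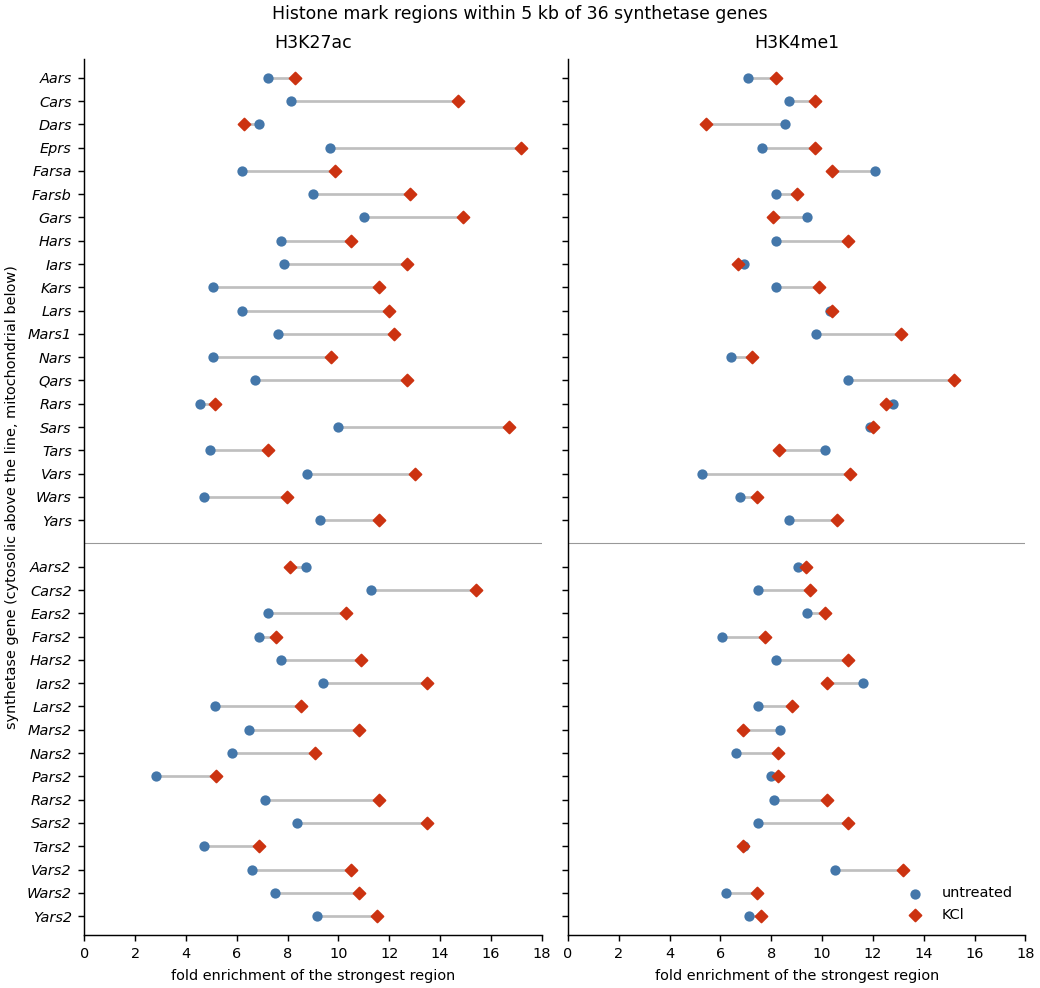
Fold enrichment of the strongest H3K27ac (left) and H3K4me1 (right) region within 5 kb of 36 synthetase genes, untreated (circles) and with KCl (diamonds), cytosolic genes above the line. H3K27ac diamonds lie to the right of the circles except at Dars and Aars2, while H3K4me1 moves in both directions.

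An H3K4me1 region overlapped the promoter window, in part or whole, at 15 of 27 genes untreated and 14 with KCl, against 41.7% and 45.3% of all genes. The nearest summit lay within 1 kb of the start for 23 of 27 genes in both conditions, at a median of 534 bp untreated and 565 bp with KCl, against 594 and 583 bp over all genes. The strongest region had a median fold enrichment of 8.17 untreated (5.27 to 12.8) and 9.72 with KCl (5.44 to 15.2), against 7.46 and 7.95 over all genes. The median log2 ratio was 0.18, against 0.10, and 28 of 37 genes were higher with KCl, against 62.9% of all genes. Vars, the cytosolic valyl-tRNA synthetase, at 5.27 and 11.1, was one of 2 genes at least 1.5-fold higher, against 6.42% of all genes, and Dars, at 8.53 and 5.44, was at least 1.5-fold lower, against 2.47%. The Dars region is nearest to Mcm6, while the Vars region has its own gene nearest. Sars2 had a ratio among the 3 highest, at 7.46 and 11.0. The next lowest ratios were at Mars2, at 8.35 and 6.89, and Tars, at 10.1 and 8.30. The strongest H3K4me1 regions of the 2 lists overlapped for 30 of the 37 genes. At Tars they did not, and on its promoter window H3K4me1 was listed with KCl alone, at 2.82.

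**Figure D5:**
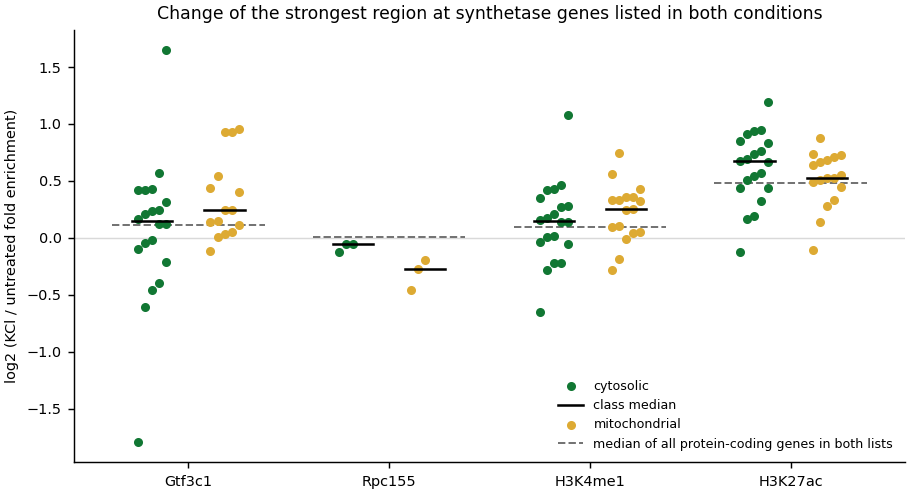
Log2 ratio of KCl to untreated fold enrichment of the strongest region, per antibody, for cytosolic and mitochondrial synthetase genes listed in both conditions (points), with class medians (solid lines) and the median of all protein-coding genes in both lists (dashed). The class medians lie near the dashed line for Gtf3c1, H3K4me1 and H3K27ac. Eprs at 1.65 and Qars at -1.79 are the ends of the Gtf3c1 spread.

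Among other genes of tRNA charging, Gtf3c1 and H3K27ac were also listed at most genes. Of 20 scaffold, charging and delivery genes, 18 had Gtf3c1 untreated and 19 with KCl, 6 and 3 had Rpc155, and 19 had H3K27ac in both conditions. The shares over all genes were 55.0% and 54.3% for Gtf3c1, 28.6% and 11.9% for Rpc155, and 59.5% and 63.2% for H3K27ac. Among genes with H3K27ac in both lists they were 86.8% and 86.9% for Gtf3c1, and 47.5% and 19.8% for Rpc155. The Rpc155 counts of this list thus lay near the share of all genes and below that of acetylated genes. Its Gtf3c1 counts lay nearer to the share of acetylated genes. Whether a region of this list is nearest to another gene was not checked. Among the scaffolds of the multisynthetase complex, Aimp1 had Gtf3c1 values of 5.55 and 5.62, Aimp2 4.12 and 3.77, and Eef1e1 4.30 and 3.59, each untreated and with KCl. Dtd2, a D-aminoacyl-tRNA deacylase, had Gtf3c1 untreated alone (6.45), while Mtfmt (3.15), the mitochondrial methionyl-tRNA formyltransferase, and Prorsd1 (3.23) had it with KCl alone. Rpc155 was listed untreated alone at Aimp1 (3.74), Dtd2 (3.40) and Gatc (2.89), a subunit of the mitochondrial glutamyl-tRNA(Gln) amidotransferase. The H3K27ac median log2 ratio of this list was 0.46 and the Gtf3c1 one 0.07, against 0.48 and 0.11 over all genes. For 10 housekeeping genes, 7 had Gtf3c1 untreated and 8 with KCl, and 7 and 3 had Rpc155.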

How the data were processed

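The submitters' processing notes name Bowtie2, MACS2 and the build GRCm38/mm10, without versions; pooling of replicates is not stated there or in the labels. Each of the 8 deposited lists gives, as the authors' values, a fold enrichment (ratio), a −log10 p, a −log10 q and a score that is 10 times the −log10 q; the lists hold regions with q up to 0.05. The input libraries were not analysed here.

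From these lists, with Python 3.11.15, pandas 2.3.3 and numpy 2.4.6, regions within 5 kb of either end of each RefSeq gene were collected, and the highest fold enrichment kept. Lists give no read counts and 1 list stands for each condition, so no test was run; 1.5-fold is a description. Named genes are the 3 highest for Gtf3c1 in each list, the 3 highest and lowest ratios per antibody, genes with Rpc155 with KCl, genes listed in 1 condition alone, and Lars2. Window lookup and motif search were tested on simulated data. Alternatives were a stricter q, equal list lengths, 1 kb, the start only and a larger overlap. The members and lists were chosen with earlier results of these data known. The values of 1 mitochondrial gene are not reported here, though it stays in the counts and medians.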

Additional observations from a re-analysis of the deposited data

How the results depend on the processing

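No paired analysis was possible because each antibody and condition has 1 list and no replicate columns. Of 106 alternative values for 22 results, 76 stayed within 1.5 times of the count or within 1.5-fold of the ratio, and 30 moved further. Only the median ratios could change sign, and 0 of them did. With q of 1e-05 or lower, Rpc155 was listed at 2 cytosolic and 3 mitochondrial genes untreated and at 2 and 2 with KCl. The shares of all genes were then 8.68% untreated and 4.10% with KCl. Gtf3c1 was listed at 17 cytosolic and 9 mitochondrial genes untreated and at 16 and 12 with KCl, against 40.7% and 41.8%. It overlapped Rpc155 at 5 genes untreated and 3 with KCl. With equal list lengths, Rpc155 was listed at 2 cytosolic and 3 mitochondrial genes untreated and at 5 and 4 with KCl, against 10.8% and 11.9%. Gtf3c1 was listed at 18 cytosolic and 14 mitochondrial genes untreated and at 20 and 15 with KCl, against 52.9% and 54.3%. Gtf3c1 then overlapped Rpc155 at 5 genes untreated and 7 with KCl. For the Rpc155 and overlap counts the direction between the conditions turned with equal list lengths. For the mitochondrial Gtf3c1 count, 16 untreated and 15 with KCl in the main setting, it turned at both settings. Counting only the RefSeq start leaves 13 cytosolic genes to test: Gtf3c1, H3K4me1 and H3K27ac were each listed at 13 in both conditions, and Rpc155 at 6 untreated. Over the RefSeq promoter window, an alternative chosen after seeing the data, cytosolic genes with Gtf3c1 were 10 untreated and 11 with KCl, with H3K27ac 13 in both, with H3K4me1 6 in both, and with Rpc155 5 untreated and 2 with KCl. Mitochondrial genes were 9 for Gtf3c1 with KCl, 9 untreated and 8 with KCl for H3K4me1, and 3 untreated and 1 with KCl for Rpc155. Here fewer genes are tested, by construction. No depth is known, and the lists hold 1 value per region, so no error can be given.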

Other observations

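The amino acid response genes, which ATF4 and its upstream kinases serve, are the pathway that regulates many cytosolic synthetase genes. Of 16 such genes, 13 had a Gtf3c1 region untreated and 14 with KCl, 6 and 5 had Rpc155, and 15 had H3K27ac in both conditions. Over all genes the shares were 55.0% and 54.3% for Gtf3c1, 28.6% and 11.9% for Rpc155, and 59.5% and 63.2% for H3K27ac. Among genes with H3K27ac in both lists they were 86.8% and 86.9% for Gtf3c1, and 47.5% and 19.8% for Rpc155. Against those, the Gtf3c1 counts of this list did not stand out. The median log2 ratio of Gtf3c1 was 0.51 over the 13 genes in both lists, with 3 at least 1.5-fold higher and 1 lower, beside 0.17 for the synthetase genes and 0.11 over all genes, of which 14.2% were higher and 5.95% lower by that measure. These values are again of the strongest region within 5 kb of either gene end. Whether it is nearest to another gene, or at the same place in both lists, was not checked here. Ddit3, at 6.63 and 9.87, shares its values with Mars1 above. The 3 higher genes were Atf4 itself (8.06 untreated and 13.5 with KCl), Ppp1r15a (3.22 and 7.18) and Slc3a2 (3.22 and 5.74). Ppp1r15a restores translation initiation. The lower gene was Chac1, a glutathione-degrading enzyme, at 9.31 and 2.59. Trib3, a pseudokinase target of ATF4, was 11.1 and 15.8, a rise of less than 1.5-fold. Trib3 had Rpc155 values of 5.09 untreated and 9.08 with KCl. Rpc155 was listed with KCl alone at Ddit3 (4.18) and Sesn2 (5.08), and untreated alone at Asns (3.23), Eif2ak3 (3.40) and Slc3a2 (2.89). Cebpb had Gtf3c1 with KCl alone (4.66).

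Lars2, the mitochondrial leucyl-tRNA synthetase (chr9:123366927-123462675), had a Gtf3c1 region with KCl that stood apart, singled out after its values were seen. It spans 215 bp (chr9:123461899-123462113), 648 bp inside the far end of the gene, and joins a low fold enrichment of 3.28 to a −log10 q of 42.8. It was the 1 region of 58090 in the KCl Gtf3c1 list with a fold enrichment under 3.5 and a −log10 q over 40, and 0 of 66622 untreated regions were so. At the start of Lars2, Gtf3c1 was listed untreated alone, at 3.56, so the Lars2 ratio compares different places.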
